A study of Mus musculus with 8 samples.

Results

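Alpha-defensins are small cysteine-rich antimicrobial peptides, and the mouse genes that encode them, also called cryptdin genes, carry the symbols Defa or, in older annotation, Defcr. All probes of the deposited signal table whose gene symbol starts with either name were taken, which gave 8 of 25697 probes, for 7 genes: Defa20 with 2 probes, and Defa21, Defa22, Defa26, Defa31, Defa39 and the transcribed pseudogene Defa-ps1 with 1 each. The arrays measured RNA of goblet cells, which make the mucus of the gut, sorted from C57Bl/6 mice: 4 samples from small intestine and 4 from colon, with no treatment, genotype or age stated. The cells came from epithelium released in EDTA and were gated as lacking CD45 and CD24 while carrying CK18 and binding the lectin UEA-I. Whether the samples of a segment were separate animals or pools is not stated, so the p-values reflect only sample-to-sample spread, part of which may be technical.

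In the small intestine, alpha-defensins are known as the main granule peptides of Paneth cells, which sit at the crypt base and release them into the crypt lumen. The peptides are made as inactive precursors, and in mice the metalloprotease Mmp7 (matrilysin) cuts them to the active form. Wnt signalling through Tcf7l2 (TCF4) drives their transcription and the maturation of Paneth cells. The mouse colon normally holds few or no Paneth cells. Mouse Paneth cells bind UEA-I, as goblet cells do, and carry CD24 on their surface, the marker the sort excluded.

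The family is a cluster of recent gene copies. The RefSeq gene table held 40 Defa genes, of which 29 were protein coding and 40 lay on chromosome 8, against 7 with a probe on the array. A probe may bind transcripts of copies it is not named for, so the named gene of each probe is uncertain. How alike the copies are where the probes bind was not measured. The 250 bases before the transcription start show how alike they are in that window, taken from RefSeq for the 4 of 7 measured genes that the table held (build GRCm38.p6, plus strand). Capitals mark 2 motifs, searched on both strands: ATCAAAG, the core bound by TCF/LEF factors of the Wnt pathway, and TATAAA, the TATA box. No copies of the 2 motifs overlapped. The sequences belong to Defa21 (chr8:21025295-21025544), Defa20 (chr8:21509008-21509257) and Defa31 (chr8:21191323-21191572). They are shown because Defa21 and Defa20 were bright in small intestine while the Defa31 probe was dark.
Defa21: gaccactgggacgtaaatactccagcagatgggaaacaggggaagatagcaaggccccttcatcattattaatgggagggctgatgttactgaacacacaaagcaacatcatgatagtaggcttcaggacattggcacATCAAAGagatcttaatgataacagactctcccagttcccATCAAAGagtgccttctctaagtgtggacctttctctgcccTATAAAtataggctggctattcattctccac
Defa20: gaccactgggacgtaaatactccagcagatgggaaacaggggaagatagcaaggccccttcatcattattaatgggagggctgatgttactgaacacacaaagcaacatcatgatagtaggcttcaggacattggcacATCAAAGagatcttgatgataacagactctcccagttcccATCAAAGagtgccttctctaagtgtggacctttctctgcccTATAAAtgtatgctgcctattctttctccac
Defa31: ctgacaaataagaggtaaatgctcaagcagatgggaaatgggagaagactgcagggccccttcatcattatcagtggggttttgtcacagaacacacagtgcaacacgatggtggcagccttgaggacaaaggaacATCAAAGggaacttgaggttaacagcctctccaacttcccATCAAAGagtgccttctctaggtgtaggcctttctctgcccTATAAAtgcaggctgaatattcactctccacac
The window of Defa22 (chr8:21162027-21162276) was identical to that of Defa21 at all 250 bases. Defa20 differed from both at 5 positions. Defa31 matched Defa21 at 199 of 246 aligned bases, or 80.9%. ATCAAAG occurred 2 times in each of the 4 windows, 112 and 72 bases before the start in Defa20, Defa21 and Defa22, and 114 and 74 bases before it in Defa31. Of 32851 mouse windows of this length, 3.21% held the motif at least once and 0.0822% at least 2 times. Among 16 Defa windows in the table, 13 held it at least once and 9 at least 2 times, though these are near-copies and not independent. TATAAA occurred in 15 of the 16 Defa windows, against 12.4% of all. These matches describe letters only and do not show that a factor binds there.

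The mean signal per array was 406 to 558 units in small intestine and 386 to 477 in colon, and 12475 to 13922 and 12447 to 13385 probes were above background (detection p below 0.05). The number of arrays, 4 per segment, limits the precision. Of 16 goblet cell markers, 14 had a probe, and all 14 were tested and were above background on all 4 arrays of each segment. Of the 14, 0 were higher in small intestine, 8 were higher in colon and 6 did not pass. Tff3, the trefoil peptide of mucus, had log2 means of 12.58 ± 0.07 (small intestine) and 12.27 ± 0.02 (colon; SD, n = 4; limma adjusted p = 0.202). Of 11 tested colonocyte markers, 0 were higher in small intestine, 10 had colon on top and 1 did not pass. Beside the counts of both lists, 9.83% of all tested probes were called higher in small intestine and 11.6% higher in colon. Array correlations over tested probes were 0.923 to 0.982 within small intestine, 0.928 to 0.964 within colon and 0.762 to 0.880 between the segments. Levels below are background-corrected, quantile-normalized log2 values, and differences are small intestine minus colon.

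In the sorted small-intestinal cells, 7 of the 8 alpha-defensin probes were above background on all 4 arrays, and all of these but Defa-ps1 were bright. In the colon cells the same probes were lower on every array, but by amounts that differed widely from array to array. Each protein-coding member encodes an alpha-defensin precursor. The probe of Defa39 stood at 13.88, 13.92, 13.83 and 14.00 on small-intestinal replicates 1 to 4, against 11.26, 8.30, 5.72 and 11.45 on colon replicates 1 to 4. It was above background on all 8 arrays, and the lowest small-intestinal value lay above the highest colon value. Defa21 stood at 13.77, 13.73, 13.71 and 13.73 in small intestine, against 10.81, 7.56, 5.25 and 10.93 in colon. After quantile normalization, which gives equal levels to equal ranks, the small-intestinal values had a range of 0.06, while the colon values spanned 5.68. On the background-subtracted linear scale of the authors' processed table, the small-intestinal arrays ran from 83.3% to 124% of their Defa21 mean. Colon replicates 1 and 4 were the high ones, replicate 2 lay between, and replicate 3 was not above background.

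Defa26 showed the same split of the colon arrays, with 13.53, 13.62, 13.43 and 13.55 in small intestine, against 10.84, 7.26, 4.85 and 10.93 in colon. Defa22 stood at 13.73, 13.66, 13.48 and 13.42 in small intestine, against 10.30, 5.23, 5.23 and 10.44 in colon. For Defa22, colon replicates 2 and 3 were both at background, unlike the 3 genes above, for which replicate 2 was clearly detected. Defa20 was measured by 2 probes, ILMN_2675560 and ILMN_2739019.

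Defa20 probe ILMN_2675560 stood at 13.71, 13.67, 13.54 and 13.51 in small intestine, against 10.38, 5.36, 4.90 and 10.27 in colon. Defa20 probe ILMN_2739019 stood at 14.83, 14.61, 14.61 and 14.61 in small intestine, against 11.67, 8.33, 5.19 and 11.61 in colon. The 2 probes of this gene ran together on 7 arrays and parted on colon replicate 2, where ILMN_2739019 was above background (signal 495 units) and ILMN_2675560 was not (signal 177 units). In small intestine, probe ILMN_2739019 was among the brightest features of the whole array, ranking 2 on replicate 1 and 3 on the other arrays. Its deposited signals there were 29740, 24433, 23357 and 34082 units, where the highest signals of these arrays were 36844, 30881, 36684 and 43332.

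The pseudogene Defa-ps1 had 9.49, 8.90, 8.98 and 9.11 in small intestine, against 5.77, 4.69, 4.70 and 6.55 in colon, where replicates 1 and 4 alone were above background. The probe of Defa31 stood at 4.77, 4.90, 4.89 and 4.69 in small intestine, against 4.74, 4.79, 4.66 and 5.08 in colon. The Defa31 probe was above background on none of the 8 arrays, its groups overlapped, and it was not tested. Its signals were 147, 160, 149 and 156 units in small intestine, against 139, 151, 146 and 169 units in colon, and no level of Defa31 can be given from these arrays.

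**Figure D1:**
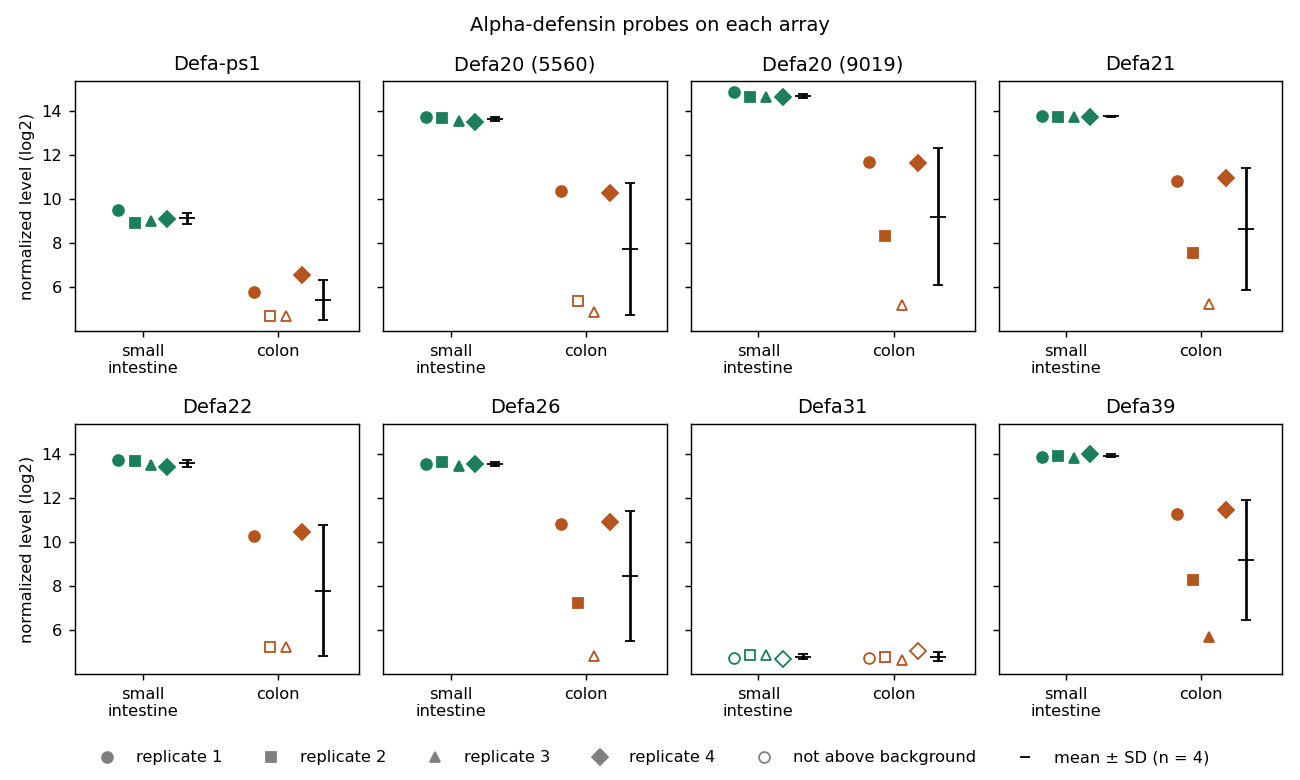
Normalized level (log2) of each of the 8 alpha-defensin probes, small intestine on the left and colon on the right of each panel. Marker shape gives the replicate, open symbols are arrays where the probe was not above background, and bars are mean ± SD (n = 4). The small-intestinal points of each of the 7 probes above background there sit close together above all colon points, which are spread, with colon replicates 1 and 4 on top. Defa31 is open on all 8 arrays, and the Defa20 probes carry the last digits of their names.

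All 7 alpha-defensin probes that passed the filter on dim probes (above background on at least 4 of 8 arrays) were higher in small intestine, and 0 were higher in colon (limma with Benjamini-Hochberg adjustment over 13618 tested probes). Of all tested probes, 9.83% were called higher in small intestine, 11.6% higher in colon and 21.4% in either direction. The 4 small-intestinal and 4 colon values did not overlap for any of the 7, against 10.8% of all tested probes with small intestine on top. A single probe with no overlap reaches p = 0.0286 by a two-sided exact permutation test, the smallest that 4 against 4 arrays allow. The median difference of the 7 probes was 5.10 log2, against -0.02 for all tested probes. The filter used both segments, and the members passed it through the small-intestinal arrays, on all of which they were above background.

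Except for Defa39, the colon means below include arrays on which the probe was not above background, so the differences are not ranked. Each SE and p-value rests on a variance shared by both segments and drawn by limma toward that of all tested probes. The spread of these probes lay mostly in colon, so the p-values may look stronger than a test with separate variances would give. Defa20 probe ILMN_2675560 averaged 13.61 ± 0.10 (small intestine) and 7.73 ± 3.01 (colon), with a difference of 5.88 (SE 1.13, limma adjusted p = 0.00344). Defa22 had means of 13.57 ± 0.15 and 7.80 ± 2.97 (5.77, SE 1.12, adjusted p = 0.00357). Defa20 probe ILMN_2739019 had means of 14.67 ± 0.11 and 9.20 ± 3.10 (5.46, SE 1.17, adjusted p = 0.00644). Defa21 had means of 13.74 ± 0.02 and 8.64 ± 2.74 (5.10, SE 1.04, adjusted p = 0.00481). Defa26 had means of 13.53 ± 0.08 and 8.47 ± 2.96 (5.06, SE 1.12, adjusted p = 0.00764), and Defa39 of 13.91 ± 0.07 and 9.18 ± 2.72 (4.73, SE 1.03, adjusted p = 0.00715; SD, n = 4 each throughout). Defa-ps1, with means of 9.12 ± 0.26 in small intestine and 5.43 ± 0.90 in colon, had a difference of 3.69 (SE 0.38, adjusted p = 4.81e-05). Defa-ps1, ILMN_2675560 and Defa22 were each above background on 2 colon arrays, 1 and 4. Without background correction the difference of Defa-ps1 was 1.99, and those of the other 6 probes were 4.11 to 4.76, all still called. Differences between members were not tested.

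A colon mean describes no single colon array for these genes, so the size of the difference moved with the arrays included. Without colon replicate 1 the 7 differences ran from 3.81 to 6.76, without replicate 2 from 3.45 to 5.17, without replicate 3 from 3.45 to 4.94 and without replicate 4 from 4.07 to 6.73. For Defa21 the difference was 5.82, 4.74, 3.97 and 5.86 without colon replicates 1, 2, 3 and 4, taken singly. With colon replicates 1 and 4 both left out, the 4 probes still above background on a colon array had differences of 6.90 to 7.90. Of these 4, only Defa39 was above background on replicate 3, so the differences of the others include a background level. The remaining 3 tested probes were above background on neither remaining colon array, so they have only a bound there: small intestine was at least 12.3-fold higher for Defa-ps1, at least 276-fold for Defa20 probe ILMN_2675560 and at least 269.5-fold for Defa22. With replicates 2 and 3 both left out the 7 differences were 2.55 to 3.28. All 7 probes stayed called, higher in small intestine, in each of these fits.

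**Figure D2:**
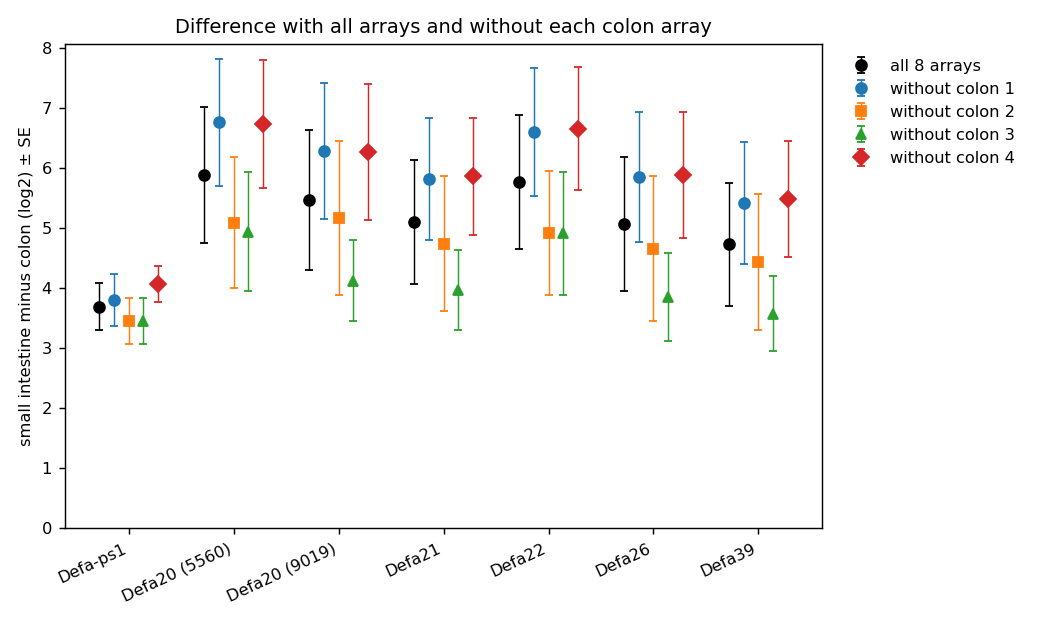
Difference between small intestine and colon (log2, with its SE) for the 7 tested alpha-defensin probes, with all 8 arrays and without each colon array in turn. Leaving out colon replicate 1 or 4 raises each difference and leaving out replicate 3 lowers it, and no interval of ± 1 SE reaches 0.

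The colon arrays were next taken 1 by 1, as percents of each probe's small-intestinal mean, on the background-subtracted linear scale of the authors' processed table. With 1 array each these are descriptions without a test. On colon replicate 1, the percents of Defa22, Defa20 (ILMN_2675560), Defa21, Defa20 (ILMN_2739019), Defa26 and Defa39 were 9.86%, 10.2%, 12.4%, 12.6%, 15.1% and 15.3%. On colon replicate 4 the same probes, in the same order, were at 11.1%, 9.50%, 13.8%, 11.9%, 16.4% and 17.2%. These 2 arrays gave similar percents, with ratios of replicate 1 to replicate 4 of 0.887 to 1.08 for these 6 probes, and on both arrays Defa39 and Defa26 kept the most and Defa22 and Defa20 (ILMN_2675560) the least. Defa-ps1 was at 6.40% on replicate 1, 1.36 times the lowest value above background there, and at 13.7% on replicate 4.

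On colon replicate 2, Defa39 was at 1.95%, Defa21 at 1.27%, Defa20 (ILMN_2739019) at 1.22% and Defa26 at 1.21% of their small-intestinal means. Defa22 and Defa20 (ILMN_2675560) were at 0.162% and 0.196% there and not above background, for which 0.208% and 0.203% were needed. The 6 bright probes therefore fell into a pair near background and a set of 4 detected at 5.69 to 12.6 times the lowest value above background. The probes that were lowest on replicate 2 were also the lowest on replicates 1 and 4, by less. On colon replicate 3, Defa39 was at 0.172%, just above its threshold of 0.155%, and the other 6 tested probes were not above background. The small-intestinal arrays, by comparison, ran from 74.9% to 136% of their own means over the 7 probes.

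**Figure D3:**
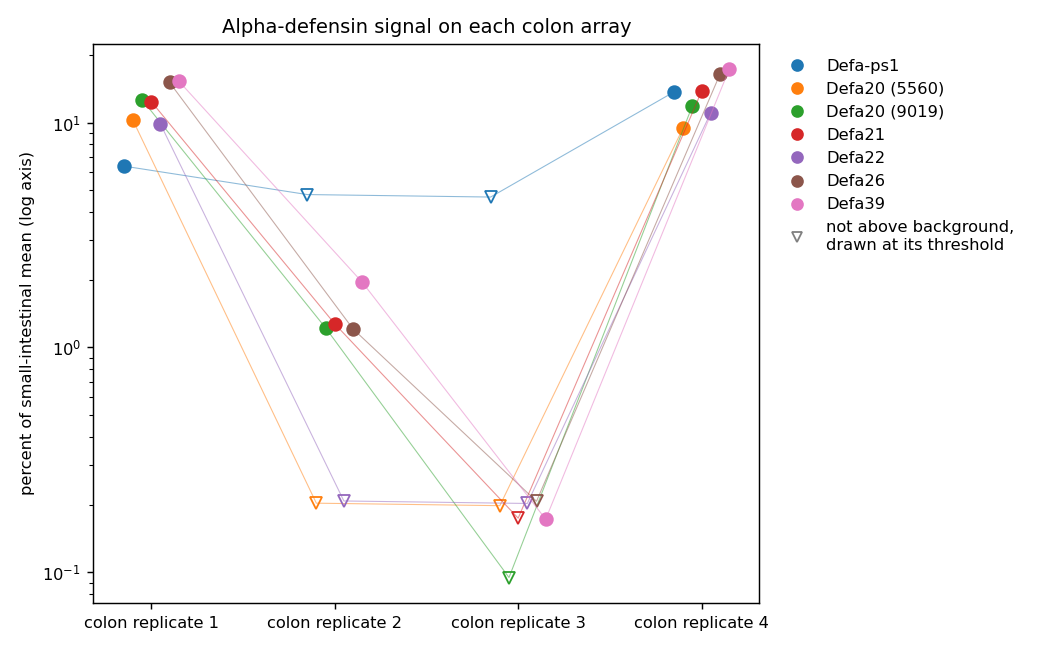
Percent of the small-intestinal mean (log axis) for 7 alpha-defensin probes on each colon array. Filled circles are above background, open triangles are not and are drawn at the array's background threshold; thin lines join the points of 1 probe and imply no order of the arrays. Replicates 1 and 4 lie between 6.40% and 17.2%, replicate 2 splits into 4 probes above 1% and 3 not above background, and on replicate 3 Defa39 alone is filled.

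Most tested Paneth cell markers were also higher in small intestine. Of 16 Paneth cell markers outside the family, 12 had a probe and 11 were tested, of which 8 were higher in small intestine, 2 higher in colon and 1 did not pass. Among all tested probes, 9.83% and 11.6% were called in these directions. The median difference of the 11 markers was 2.91 log2, against -0.02 for all tested probes. Lyz1, the Paneth cell lysozyme, was at 16.01%, 1.19%, 0.241% and 12.8% of its small-intestinal mean on colon replicates 1 to 4, high on the same 2 arrays as Defa21. Itln1, the lectin intelectin, was at 25.8%, 4.67%, 3.38% and 24.8%. Ang4, a ribonuclease with microbicidal activity, was at 25.2%, 27.0%, 14.9% and 46.6%, with replicate 2 not below replicate 1. Not all markers followed the order of the defensins. Pnliprp2, a lipase, and Habp2, a hyaluronan-binding protease, were above background on no colon array, and were at least 23.7-fold and at least 4.47-fold higher in small intestine (limma adjusted p = 5.73e-08 and 1.91e-05). Reg3b, an antimicrobial lectin that did not pass the test, was at 57.7%, 37.2%, 79.3% and 89.1%, higher on replicate 3 than on replicate 1. The 2 that were higher in colon were Mptx1, a pentraxin (difference -4.81, SE 0.22, limma adjusted p = 1.85e-07), and Nupr1, a stress-responsive regulator (difference -1.89, SE 0.19, adjusted p = 3.44e-05). Wnt3, a Wnt ligand made by Paneth cells, was above background on no array. The summed processed values of the 12 markers ran from 46002 to 66076 units in small intestine and were 22937, 15848, 18882 and 28373 units on colon replicates 1 to 4. Most of the colon sums came from Mptx1, Reg3b and Nupr1, which added up to 10791 to 15432 units in small intestine, against 15424, 13295, 17214 and 19520 units in colon. The 8 markers called higher in small intestine summed to 35209 to 50641 units there, against 7517, 2561, 1664 and 8862 units on colon replicates 1 to 4, a split made by the test itself and so a description.

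The median of the enterocyte markers differed between the colon arrays as well, though not all single markers followed it. This comparison was made over genes above background on all 4 small-intestinal arrays with a mean of at least 1000 processed units there. The 6 alpha-defensin probes that met these conditions had a median of 12.5%, 1.22%, 0.0868% and 12.8% on colon replicates 1 to 4. The 8 Paneth cell markers had 16.98%, 3.72%, 3.08% and 18.8%, and 13 enterocyte markers, genes of absorptive cells, had 6.43%, 1.65%, 0.932% and 15.8%. The 7 goblet cell markers stayed near or above the small-intestinal level, at 110%, 111%, 136% and 124%. Some enterocyte markers had another order on colon replicates 1 to 4. Vil1 was at 36.9%, 50.9%, 41.4% and 51.5%, Dpp4 at 13.4%, 16.7%, 9.77% and 15.8%, and Mep1a at 173%, 139%, 159% and 136%. Akp3 was above background on no colon array. Of 15 tested enterocyte markers, 14 passed with small intestine on top, 0 with colon on top and 1 did not pass. Their summed values were 43986 to 72783 units in small intestine, against 7630, 5747, 5365 and 13719 units on colon replicates 1 to 4. For this list and the next, the share of all tested probes called higher in small intestine was 9.83%. Among 7 tested immune cell markers 6 passed, all with small intestine on top, with sums of 2344 to 3732 units in small intestine, against 563, 99.6, 121 and 913 units in colon. Cd79a, S100a8 and S100a9 of that list were above background on no array. The part of other cells in the alpha-defensin levels was not tested. In sorted samples of this kind, fewer cells of a type and less RNA per cell cannot be told apart.

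**Figure D4:**
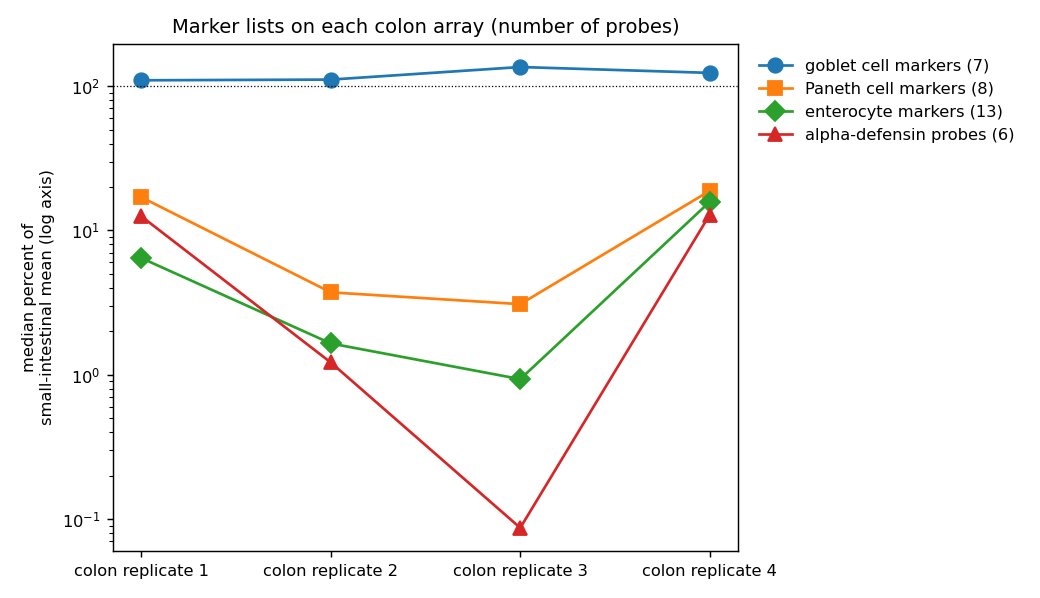
Median percent of the small-intestinal mean (log axis) on each colon array for alpha-defensin probes, Paneth cell markers, enterocyte markers and goblet cell markers, with the number of probes in brackets; the dotted line is 100%. The alpha-defensin, Paneth and enterocyte medians are high on replicates 1 and 4 and low on 2 and 3, while the goblet median stays between 110% and 136%. The alpha-defensin median on replicate 3 is below the background threshold.

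Among genes of alpha-defensin biology other than the peptides, the processing enzyme was higher in small intestine and most others did not pass the test. Mmp7, which is also in the Paneth list, stood at 11.66, 10.72, 10.70 and 10.81 in small intestine, against 7.29, 5.15, 6.55 and 7.59 in colon, with no overlap (difference 4.33, SE 0.47, limma adjusted p = 6.29e-05). On colon replicates 1, 3 and 4, Mmp7 was at 6.07%, 2.79% and 8.04% of its small-intestinal mean, and on replicate 2 it was not above background. Mmp7 was thus high on the same arrays as the defensins, but detected on replicate 3 and not on replicate 2. Of 12 Wnt pathway and target genes, 8 were tested, of which 1 was higher in small intestine, 1 higher in colon and 6 did not pass, a share of calls near the 21.4% of all tested probes. Axin2, a feedback inhibitor and Wnt target, was higher in small intestine by 1.63 (SE 0.35, adjusted p = 0.00685), and Cd44, a surface receptor and Wnt target, was higher in colon (difference -1.24, SE 0.33, adjusted p = 0.0209). Tcf7l2 had means of 9.79 ± 0.34 (small intestine) and 10.26 ± 0.33 (colon; adjusted p = 0.191). Sox9, a transcription factor needed for Paneth cells, stood at 6.33 ± 1.02 and 6.20 ± 1.04 (adjusted p = 0.897), above background on 3 small-intestinal and 2 colon arrays. Fzd5, the Wnt receptor of Paneth cell maturation, was not analysed here.

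Of 7 genes of the secretory and Paneth lineages, 6 were tested, with 1 higher in small intestine, 2 higher in colon and 3 not passing, where 9.83% and 11.6% of all tested probes were called in these directions. Atoh1, which sets the secretory fate, was higher in colon, with 6.14 ± 0.38 in small intestine and 8.04 ± 0.37 in colon (difference -1.90, SE 0.25, adjusted p = 0.000284). Spdef, a regulator of goblet and Paneth cell maturation, was likewise higher in colon (-1.54, SE 0.20, adjusted p = 0.000214). Bhlha15 (Mist1), a regulator of secretory cell structure, was higher in small intestine by 0.83 (SE 0.27, adjusted p = 0.0478). The Bhlha15 probe was above background on only 1 colon array, so this difference includes background levels. Xbp1, the secretory stress regulator that Paneth cells need, stood at 10.27 ± 0.26 and 10.41 ± 0.11 (adjusted p = 0.637), and Gfi1 at 7.21 ± 0.30 and 7.80 ± 0.22 (adjusted p = 0.0706). Of 7 sensing genes, 3 were tested, with 1 higher in small intestine and 1 higher in colon, while Myd88 did not pass. The shares of all tested probes were again 9.83% and 11.6%, and 3 genes are too few to compare with them. Ticam1, an adaptor of Toll-like receptors, was higher in small intestine (difference 1.42, SE 0.31, limma adjusted p = 0.00717), and above background on only 2 colon arrays. Tlr4, the lipopolysaccharide receptor, was at least 4.32-fold higher in colon (adjusted p = 7.69e-06), and no small-intestinal array had it above background. Nod2, a sensor linked to Paneth cell function, was above background on no array. Of 12 genes of granule handling and autophagy, 11 were tested, with 1 higher in small intestine, the chaperone Hspa5 (0.75, SE 0.23, adjusted p = 0.0408), and 10 not passing, about the 9.83% of all tested probes. Kcnn4, a potassium channel of Paneth cell secretion, had means of 7.85 ± 0.57 (small intestine) and 8.23 ± 0.26 (colon; adjusted p = 0.373).

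The genes outside the family whose pattern over the 8 arrays was closest to it were led by Lyz1. Likeness was measured as the root mean square gap between a gene's log2 levels, less its small-intestinal mean, and the mean of the 7 alpha-defensin probes treated the same way. Over 9074 genes the median gap was 4.00, and over the 7 members themselves the gaps ran from 0.197 to 1.49. On colon replicates 2 and 3 many levels were not above background (3 and 6 of the 7 members), so a gap there also depends on how far a probe's small-intestinal level lies above background. Lyz1, above background on all 8 arrays, had a gap of 0.207. It was followed by Apoa1, an apolipoprotein (0.507), the amino acid transporter Slc7a15 (0.708), Olfm4, a crypt base glycoprotein (0.752), Apoa4, a further apolipoprotein (0.778), the brush border peptidase Anpep (0.845), the disaccharidase Treh (0.851) and Mttp, a lipid transfer protein (0.878). Of these 8, Apoa1, Apoa4, Anpep, Treh and Mttp stand in the enterocyte list. Olfm4 was at 5.59% and 4.16% of its small-intestinal mean on colon replicates 1 and 4 and not above background on the other colon arrays. Anpep was at 2.07%, 0.988% and 13.2% on colon replicates 1, 2 and 4 and not above background on replicate 3.

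**Figure D5:**
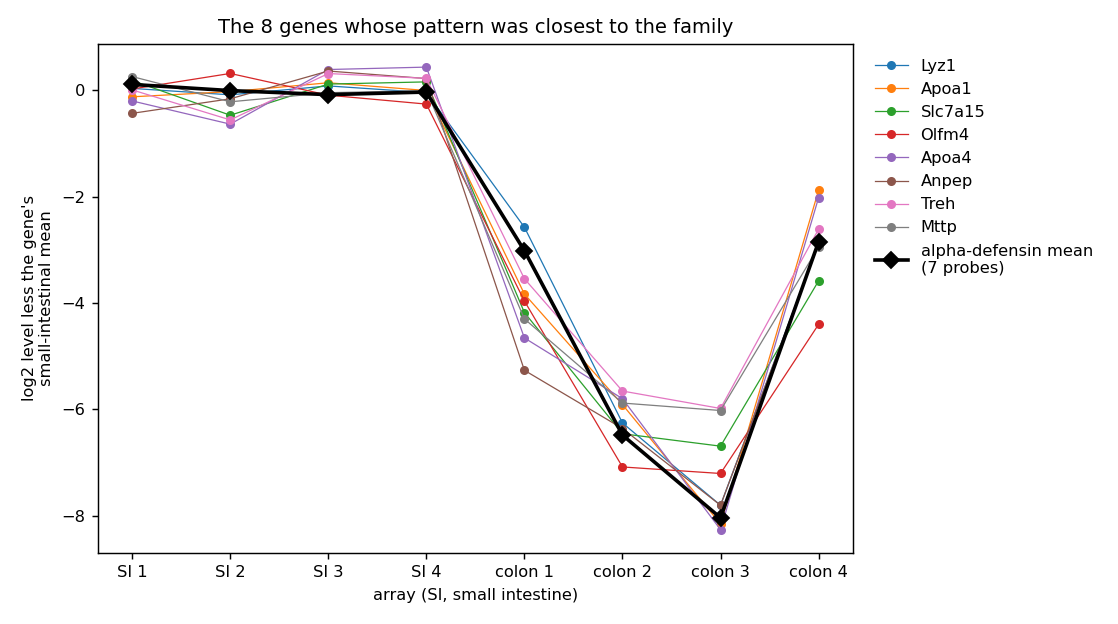
Log2 level less the gene's own small-intestinal mean on each array, for the mean of 7 alpha-defensin probes (black) and the 8 genes closest to it; lines join arrays for reading only. By construction each line averages 0 over the small-intestinal arrays, where single points deviate by as much as -0.634 (Apoa4, replicate 2). In colon the family mean is at -3.02, -6.49, -8.04 and -2.85 on replicates 1 to 4, and Lyz1 follows it most closely.

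Beta-defensins, a separate family made by many epithelia, served as a comparison. Of 43 Defb probes for 41 genes, 35 were above background on no array and 2 were tested, of which 1 was called. Defb37 stood at 5.18, 4.82, 4.96 and 5.28 on small-intestinal replicates 1 to 4, none of them above background, against 9.16, 6.56, 8.39 and 8.46 on colon replicates 1 to 4, all above it. It was at least 6.70-fold higher in colon (limma adjusted p = 0.000559), a bound taken from the lowest level above background on each small-intestinal array or the probe's own level, whichever was higher. Defb36 had means of 5.92 ± 0.41 (small intestine) and 5.90 ± 0.20 (colon; SD, n = 4; limma adjusted p = 0.960). Neither tested Defb probe was called higher in small intestine. Of all tested probes, 9.83% were called higher in small intestine and 11.6% higher in colon, and 2 tested probes are too few to compare with these shares.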

How the data were processed

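RNA of sorted goblet cells was turned into biotinylated cRNA for Illumina arrays, per the labels' protocols. The deposited signal table holds probe intensity on a linear scale, unscaled, and a detection p-value per probe and array, per the file headers and the values. The authors' second deposited table holds intensity after a subtraction and a scaling of each array to a mean of 293 units, each column an exact straight line of its array's signals. It gave the percents. The scanner software and the files' build are not given in the sources used here. In 1 cell of a probe outside the family, the text was corrupted, and it was restored from that line.

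The members and gene lists were chosen with earlier results of these data known. Signals were background-corrected from the detection p-values (normexp, offset 16) and quantile-normalized (neqc of limma 3.58.1, R 4.3.3). Tables were handled with pandas 2.3.3 and numpy 2.4.6 under Python 3.11.15, and figures with matplotlib 3.10.9. The 13618 of 25697 probes with detection p below 0.05 on at least 4 of 8 arrays were tested by lmFit and eBayes at an adjusted p of 0.05, small intestine minus colon. For a gene outside the family, whichever tested probe averaged highest was used. Platform names were brought up to date by Entrez identifier (23962 probes) or accession (9), kept for 7 and lacking for 1719. Named genes were all members, the pathway lists' defining or called genes, Defb probes above background on all arrays of a segment, and the 8 genes closest in pattern. Marker genes outside this rule (Tff3, Itln1, Ang4, Pnliprp2, Habp2, Reg3b, Mptx1, Nupr1, Vil1, Dpp4, Mep1a and Akp3) were chosen after their values were seen. On simulated data for this comparison with 13618 probes, 58 of 100 probes changed 2-fold and 92 of 100 changed 4-fold were recovered, with 7 of 157 calls false. The simulated noise of each probe followed its small-intestinal SD, capped, in both segments, and only brighter probes were changed. The wide colon spread of the members was not simulated, so this recovery does not extend to them. Alternatives covered background, scaling, filter, variance prior, weights, a replicate block and omitted arrays.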

Additional observations from a re-analysis of the deposited data

Results flagged for a closer look

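Of 16 groups of 4 arrays checked over the 8 alpha-defensin probes, 1 held an array far from the others, and chance flags about 5% of such groups. It was Defa20 probe ILMN_2739019 on small-intestinal replicate 1, at 14.8264 log2, where the 3 others shared 1 value of 14.61. Quantile normalization gives equal levels to equal ranks, and the probe ranked 2 on that array and 3 on each of the others, so the gap is that of a single rank. No colon array was set apart by this check.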

How the results depend on the processing

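Over 21 other ways to fit the comparison, all 7 tested alpha-defensin probes stayed higher in small intestine wherever they were tested, with adjusted p up to 0.0402. When a probe had to be detected on each of the 8 arrays, 1 member, Defa39, was left to test, and it was called. In that fit 847 of 9979 probes were higher in small intestine. The median difference of the family, 5.10, ran from 3.97 to 5.88 when single arrays were left out, and from 4.32 without background correction to 5.46 with the authors' processed values. It was 7.48 without colon replicates 1 and 4, also with 3 undetected probes at their bounds (805 probes higher in small intestine and 943 in colon overall) and 2.96 without colon replicates 2 and 3 (796 and 954). Over all probes, 1339 calls had small intestine on top and 1580 had colon on top. Without scaling between arrays these were 1051 and 744, and the median of all tested probes moved from -0.02 to 0.19 while that of the family was 5.29. With array weights the counts were 2397 and 2672, and with single arrays left out 964 to 1803 and 1176 to 2051. The cause of these shifts was not tested. The replicate numbers in the titles were tried as a block (replicate block), and 7 members stayed called, with 1217 and 1410 probes overall. Arrays of the same number deviated together with correlations of -0.183 to 0.247, and not every array correlated best with its own number. With so few arrays per segment, these correlations cannot show whether samples of the same number shared an origin, and the titles do not state it. The median percent over 7 probes on colon replicates 1 to 4 was 12.4%, 1.21%, 0.0571% and 13.7%. With normexp values it was 12.5%, 1.18%, 0.163% and 14.2%, and with a subtraction of the median undetected signal 9.75%, 1.27%, 0.143% and 14.2%. On colon replicate 3, 6 of the 7 probes were not above background.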
